A study of Homo sapiens with 8 samples.

Results

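The genes described here encode secreted signals that recruit or expand white blood cells: the CXC chemokines CXCL1, CXCL2, CXCL3, CXCL5 and IL8 (now named CXCL8), the CC chemokine CCL20, the colony-stimulating factors CSF1 and CSF2, and the cytokines IL1A and IL6. They are 10 of the 52576 genes in the expression table and were chosen by name with earlier results of these libraries known. Among these were the differences of the e3 guides from both kinds of control and of the non-targeting guide from no guide. Those differences are given as descriptions without a test. The tests against the non-targeting guide use libraries of those comparisons, so their p-values are not independent of the choice of genes. RNA-seq was done on NCI-H2009, a human lung adenocarcinoma cell line, grown in RPMI medium with fetal bovine serum. Cells of every group first received dCas9-KRAB, a Cas9 without cutting activity fused to a repressor domain that silences chromatin where a guide RNA brings it. There were 4 groups of 2 libraries. The e3 guide 2 and e3 guide 1 cells then received one of a pair of guides against the enhancer region under study, called e3, the non-targeting cells a guide with no target in the human genome, and the no-guide cells no guide RNA. The labels do not say whether the no-guide cells were put through a transfection without a guide, whether the dCas9-KRAB cells were 1 clone, how long the guides acted or whether replicate libraries stem from different cultures, and p-values therefore measure no more than library-to-library spread, perhaps only technical.

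Chemokines are small secreted proteins that attract cells along a gradient. CXCL1, CXCL2, CXCL3, CXCL5 and IL8 draw neutrophils through the receptor CXCR2, IL8 also through CXCR1, and CCL20 draws lymphocytes and dendritic cells through CCR6. CSF1 supports macrophages through CSF1R, and CSF2, also called GM-CSF, acts on granulocytes, macrophages and dendritic cells through CSF2RA and CSF2RB. Epithelial and carcinoma cells can make these proteins themselves: IL1A released from cells acts through IL1R1 and activates NF-kB, which together with AP-1 induces many of the chemokine genes, CSF2 and IL6. Several of these messengers carry AU-rich elements and are short-lived. In the table the genes stand as CSF2 (ENSG00000164400.4), CSF1 (ENSG00000184371.9), IL8 (ENSG00000169429.6), CXCL1 (ENSG00000163739.4), CXCL2 (ENSG00000081041.7), CXCL3 (ENSG00000163734.4), CXCL5 (ENSG00000163735.6), CCL20 (ENSG00000115009.7), IL1A (ENSG00000115008.5) and IL6 (ENSG00000136244.7), on chromosomes 5 (CSF2), 1 (CSF1), 4 (the CXC genes), 2 (CCL20 and IL1A) and 7 (IL6).

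The promoters of the chemokine genes are shown because 5 of the 10 genes lie in 1 cluster on chromosome 4 and share a stretch of letters close to their start, while their levels differed widely. RefSeq (GRCh38.p14) promoters were matched for 9 of the 10 genes, all but CSF1. The stretches below are the 150 bases before the annotated start, written 5′ to 3′ on the strand of the gene, with capitals for matches to the NF-kB motif GGAATTTCC (chosen after these promoters had been looked at), the broader NF-kB consensus or the AP-1 motif TGANTCA. The first of these motifs overlaps the consensus, and matches on both strands were searched in 250 bases before the start.
CXCL1 (chr4:73869243-73869392, plus strand): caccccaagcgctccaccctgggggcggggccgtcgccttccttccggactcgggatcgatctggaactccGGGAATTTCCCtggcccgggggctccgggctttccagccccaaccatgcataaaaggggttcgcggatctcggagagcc
CXCL2 (chr4:74099196-74099345, minus strand): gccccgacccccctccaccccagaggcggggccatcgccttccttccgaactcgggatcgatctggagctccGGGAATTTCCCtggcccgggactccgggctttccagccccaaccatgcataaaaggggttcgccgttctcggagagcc
CXCL3 (chr4:74038690-74038839, minus strand): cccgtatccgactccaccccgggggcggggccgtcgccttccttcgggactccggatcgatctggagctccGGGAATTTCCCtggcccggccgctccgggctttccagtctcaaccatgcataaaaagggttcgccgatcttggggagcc
IL8 (chr4:73740419-73740568, plus strand): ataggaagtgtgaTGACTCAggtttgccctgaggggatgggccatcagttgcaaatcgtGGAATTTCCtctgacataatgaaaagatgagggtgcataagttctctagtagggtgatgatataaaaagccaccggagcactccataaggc
CXCL5 (chr4:73998678-73998827, minus strand): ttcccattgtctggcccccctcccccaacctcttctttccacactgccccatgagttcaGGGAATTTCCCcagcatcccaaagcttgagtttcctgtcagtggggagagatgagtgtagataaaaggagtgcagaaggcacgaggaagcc
CCL20 (chr2:227813692-227813841, plus strand): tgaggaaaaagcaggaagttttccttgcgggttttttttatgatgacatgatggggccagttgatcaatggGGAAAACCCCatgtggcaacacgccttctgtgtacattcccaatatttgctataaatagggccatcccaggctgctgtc
IL6 (chr7:22727050-22727199, plus strand): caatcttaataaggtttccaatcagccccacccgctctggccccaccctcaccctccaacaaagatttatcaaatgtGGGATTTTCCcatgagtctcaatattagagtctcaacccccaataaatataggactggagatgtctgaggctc
CSF2 (chr5:132073639-132073788, plus strand): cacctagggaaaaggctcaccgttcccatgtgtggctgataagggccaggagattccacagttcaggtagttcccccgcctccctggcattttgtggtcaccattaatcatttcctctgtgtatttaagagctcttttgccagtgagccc
GGAATTTCC stood in all 5 CXC promoters, from 78 to 70 bases before the start in CXCL1 and CXCL3, from 77 to 69 in CXCL2, from 91 to 83 in IL8 and from 90 to 82 in CXCL5. It was present on either strand in 145 of 35116 promoters in the table (0.413%), the consensus in 5.21% and TGANTCA in 6.57%. CCL20 and IL6 held a match to the consensus only, IL8 and IL1A held TGANTCA, and the CSF2 window held none of these letters. Over 89 bases around the match, the promoters of CXCL1 and CXCL3 were identical at 82 (92.1%), those of CXCL1 and CXCL5 at 36 (40.4%) and those of IL8 and CXCL1 at 29 (32.6%). A match describes the letters and is not evidence of binding.

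The libraries held between 3810994 and 5657236 reads assigned to genes, recovered from the steps in the RPKM values (reads scaled to gene length and library size). MYC was at 36.3 and 36.2 RPKM with e3 guide 2 and 42.4 and 43.4 RPKM with e3 guide 1, against 88.9 and 90.1 RPKM with the non-targeting guide and 74.6 and 72.7 RPKM with no guide. The no-guide libraries stood apart from all others, at 36.9 and 38.3 on the first principal component (38.9% of the variance) against -18.5 to -5.7 in the 6 libraries that carried a guide. All differences from the no-guide cells rest on those 2 libraries, and the presence of a guide cannot be told apart from any other difference in their handling. Epithelial markers were present in all libraries (7 of 7 tested), from 15.2 RPKM for MUC1 to 1364 RPKM for KRT19. Their summed level was 2554 to 2607 RPKM with e3 guide 2, 2680 to 2702 with e3 guide 1, 2331 to 2465 with the non-targeting guide and 2935 to 3017 with no guide. Against the non-targeting guide, MUC1, CDH1 and KRT19 were higher with the e3 guides together (by 0.58, 0.27 and 0.22 log2 units, limma adjusted p = 0.0263, 0.0183 and 0.0336). As higher, 3.3% of all genes were called there. With guide 2 alone 2 of the 7 were called as higher and EPCAM as lower, by 0.24 (adjusted p = 0.00679), as were 4.03% and 5.32% of all genes. Of 8 white blood cell markers, 1 passed the filter, CD68, a lysosomal protein also made outside white blood cells. It was at 28.3 to 31.8 RPKM with the e3 guides, 21.6 to 23.7 with the non-targeting guide and 12.2 to 13.7 with no guide. CD68 was called as higher with the e3 guides together against the non-targeting guide, by 0.40 log2 units (limma adjusted p = 0.0257). CD3E was at 0 and PTPRC, the common leukocyte antigen, reached no more than 0.0469 RPKM. Of 6 fibroblast markers COL3A1, DCN and LUM were at 0 everywhere, and the list summed to 6.15 to 7.18 RPKM with the e3 guides, 5.06 to 5.76 with the non-targeting guide and 3.33 to 4.55 with no guide. The 3 endothelial markers found summed to at most 0.503 RPKM. The part of CD68 and of the fibroblast sum, which is nearly all COL1A1, in the differences given here was not tested.

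Most of the 10 genes were at or near 0 in the no-guide cells and present in all cells that carried a guide, whether or not it had a target. All 9 genes with any reads were higher in each of the 6 guide-carrying libraries than in both no-guide libraries, as were 12.5% of the 13979 genes tested. Of the 9, 6 averaged under 1 RPKM without a guide and passed the filter of a mean of 1 RPKM through the other groups, so they had to differ. With the non-targeting guide against no guide, both libraries stood above both for 9 of 9 genes, as for 27.2% of all genes. On the scale of log2(RPKM + 1) used for every log2 value here, the median difference of the 9 genes, non-targeting guide minus no guide, was 2.27, with a median of -0.01 over all genes tested and 90% of genes between -0.65 and 0.61. A difference of at least 2 was reached by 5 of the 9 genes and by 0.336% of all genes. For the e3 guides minus both kinds of control the median was 1.32, against -0.02 over all genes, and 7 of the 9 genes and 1% of all genes reached a difference of 1. As the libraries are bulk RNA, fewer cells that make a messenger and less messenger per cell cannot be told apart.

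CSF2, the granulocyte and macrophage factor, was the highest of the 10 genes wherever a guide was present. It was at 87.7 and 93.2 RPKM with e3 guide 2 and 65.0 and 75.5 RPKM with e3 guide 1, against 80.4 and 62.3 RPKM with the non-targeting guide and 0 and 0.605 RPKM with no guide. The e3 guide 1 and non-targeting libraries overlapped, the e3 guide 2 libraries lay above both, and the no-guide libraries far below. In reads, the non-targeting libraries held 526 and the no-guide libraries 2, a ratio of 249 after scaling to depth (95% exact interval 68.5 to 2059.5; intervals here cover counting error only).

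CSF1, the macrophage factor, followed another course, since it was the highest of the 10 genes without a guide. Its level was 13.5 and 13.7 RPKM with e3 guide 2 and 11.2 and 11.6 RPKM with e3 guide 1, against 6.68 and 6.05 RPKM with the non-targeting guide and 3.42 and 2.54 RPKM with no guide. None of the 4 groups overlapped, and the same held for CXCL1, CXCL2 and IL8. All 4 e3 libraries were above both non-targeting libraries in 16% of all genes. The ratio to the no-guide libraries was 4.21 (3.54 to 5.04) for the e3 guides, from 1249 and 145 reads, and 2.12 (1.74 to 2.60) for the non-targeting guide, from 325 and 145 reads.

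Among the neutrophil chemokines, IL8, CXCL1 and CXCL2 were at 22.2 RPKM or more in every guide-carrying library, CXCL3 at no more than 4.86 RPKM, and CXCL5 was listed at 0 in all 8 libraries. IL8 was at 40.5 and 41.9 RPKM with e3 guide 2 and 31.5 and 33.2 RPKM with e3 guide 1, against 25.8 and 23.1 RPKM with the non-targeting guide and 1.06 and 0 RPKM with no guide. CXCL1 was at 35.8 and 33.5 RPKM with e3 guide 2 and 25.3 and 24.9 RPKM with e3 guide 1, against 23.5 and 22.2 RPKM with the non-targeting guide and 0.329 and 0 RPKM with no guide. In both genes, and in CXCL2, every e3 library was above both non-targeting libraries, as for 16% of all genes. The no-guide cells held 10 reads of IL8, all in 1 library, and 2 of CXCL1. CXCL2 was at 38.2 and 44.8 RPKM with e3 guide 2 and 32.4 and 37.6 RPKM with e3 guide 1, against 31.1 and 24.2 RPKM with the non-targeting guide and 1.17 and 1.30 RPKM with no guide. CXCL3 was at 4.86 and 4.84 RPKM with e3 guide 2 and 3.93 and 3.95 RPKM with e3 guide 1, against 4.15 and 4.36 RPKM with the non-targeting guide and 0.192 and 0 RPKM with no guide. CXCL3 was thus the CXC gene whose e3 guide 1 libraries lay below the non-targeting ones. The ratios of the non-targeting to the no-guide libraries were 132 for CXCL1 (36.2 to 1095), 43.6 for IL8 (23.5 to 91.5), 42.1 for CXCL3 (11.3 to 353) and 22.4 for CXCL2 (13.2 to 41.5). Of the transcript stretches of 50 letters in GENCODE 29, 5.73% of those of CXCL1, 9.24% of CXCL2 and 5.26% of CXCL3 also occur in another CXC chemokine transcript, so reads could be split between these genes. For IL8 and CXCL5 the share was 0%.

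CCL20, IL1A and IL6 were present at a few RPKM, on few reads. CCL20 was at 1.13 and 2.03 RPKM with e3 guide 2 and 0.999 and 1.68 RPKM with e3 guide 1, against 1.40 and 3.66 RPKM with the non-targeting guide and 0 in both no-guide libraries. It rested on 2 to 8 reads in each guide-carrying library. On 11 reads with the non-targeting guide and 0 with no guide its level was at least 3.47-fold higher, with 3 reads over the group as the floor. IL1A, the alarm cytokine, was at 3.76 and 3.62 RPKM with e3 guide 2 and 1.40 and 4.01 RPKM with e3 guide 1, against 2.12 and 1.78 RPKM with the non-targeting guide and 0.201 and 0.223 RPKM with no guide. The lower e3 guide 1 library, with 13 reads, lay below the non-targeting libraries. IL6, which acts through IL6R and IL6ST, was at 5.11 and 5.19 RPKM with e3 guide 2 and 2.46 and 4.20 RPKM with e3 guide 1, against 2.13 and 3.84 RPKM with the non-targeting guide and 1.35 and 0.753 RPKM with no guide. Its e3 guide 1 and non-targeting libraries overlapped, and the ratio of the non-targeting to the no-guide libraries was 2.80 (1.74 to 4.65), against 9.22 (3.33 to 35.5) for IL1A.

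**Figure D1:**
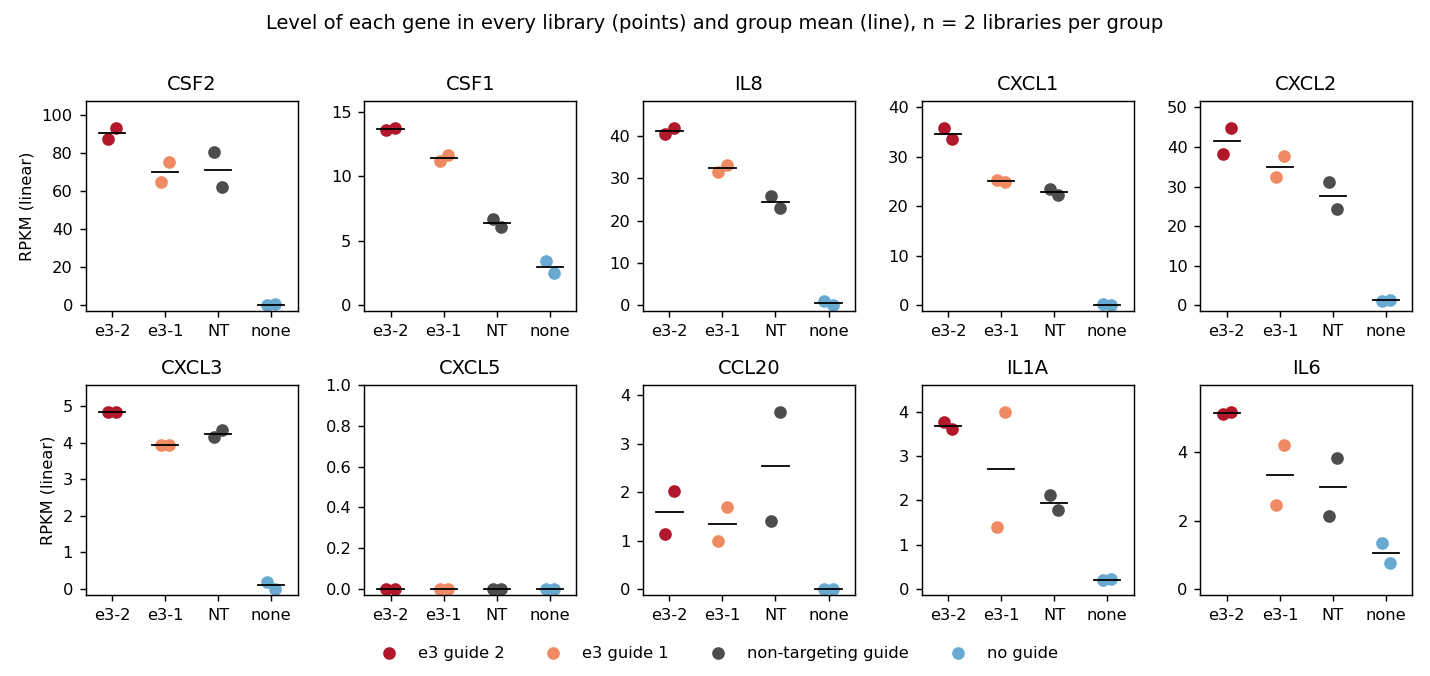
Level of each of the 10 genes in RPKM (linear axis, scaled for each gene) in the 8 libraries, with 1 point per library, a line at the group mean and the groups in the order e3 guide 2, e3 guide 1, non-targeting guide and no guide (e3-2, e3-1, NT and none on the axes). CSF2 lies between 62.3 and 93.2 RPKM in the 6 guide-carrying libraries and at 0.605 RPKM or below with no guide, and CXCL5 is at 0 throughout.

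By mean level per length over the 6 guide-carrying libraries the order was CSF2 at 77.3 ± 12.2 RPKM, CXCL2 at 34.7 ± 7.09, IL8 at 32.7 ± 7.60, CXCL1 at 27.5 ± 5.66, CSF1 at 10.5 ± 3.34, CXCL3 at 4.35 ± 0.416, IL6 at 3.82 ± 1.30, IL1A at 2.78 ± 1.14, CCL20 at 1.82 ± 0.977 and CXCL5 at 0 (SD, n = 6). CSF2 stood clear of the rest, since its lowest library was above the highest of any other gene. The ranges of CXCL2, IL8 and CXCL1 overlapped, as did those of CXCL3, IL6 and IL1A. The summed level of the 10 genes was 230.5 and 242.9 RPKM with e3 guide 2 and 174.2 and 196.7 RPKM with e3 guide 1, against 177.1 and 151.5 RPKM with the non-targeting guide and 7.73 and 5.42 RPKM with no guide. The make-up of that sum differed between cells with and without a guide, although the no-guide shares of CSF2 rest on 0 and 2 reads. CSF2 gave 38.0% and 38.4% of it with e3 guide 2, 37.3% and 38.4% with e3 guide 1, against 45.4% and 41.1% with the non-targeting guide and 0% and 11.2% with no guide. CSF1 gave 5.87% and 5.65% with e3 guide 2, 6.42% and 5.91% with e3 guide 1, against 3.77% and 3.99% with the non-targeting guide and 44.3% and 46.8% with no guide. The level of CSF2 was 6.48 and 6.79 times that of CSF1 with e3 guide 2 and 5.82 and 6.49 times with e3 guide 1, against 12.0 and 10.3 times with the non-targeting guide.

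**Figure D2:**
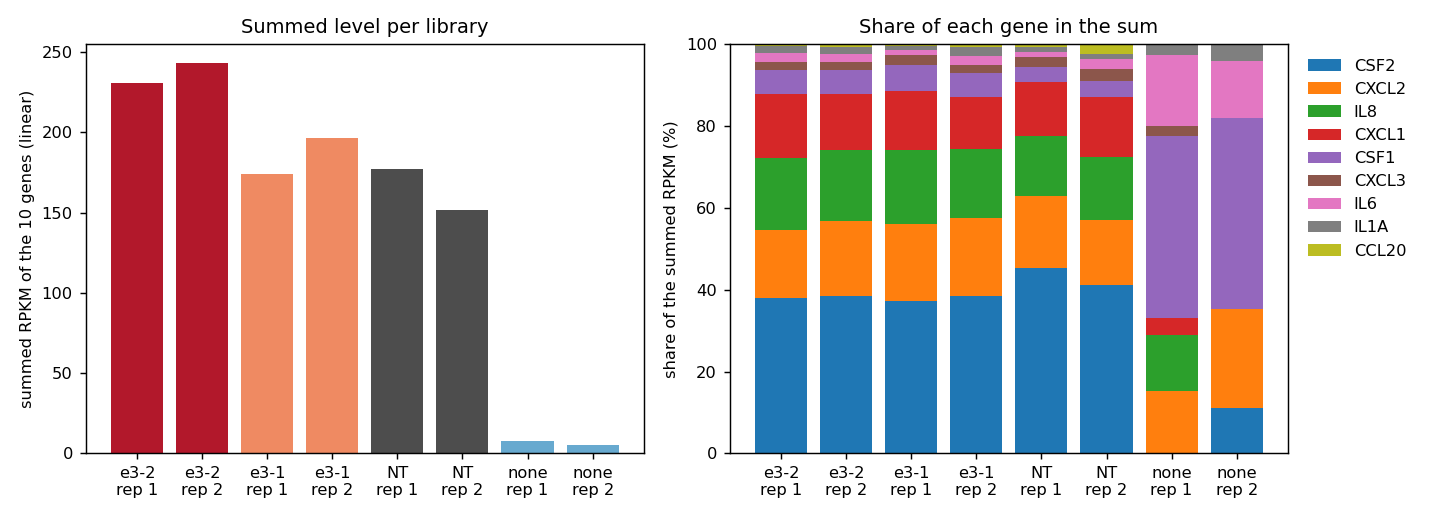
Summed RPKM of the 10 genes in each library (left) and the share of each gene in that sum in percent (right), libraries in the order e3 guide 2, e3 guide 1, non-targeting guide and no guide (e3-2, e3-1, NT and none on the axes). The sum is 7.73 and 5.42 RPKM in the no-guide libraries, where CSF1 makes up 44.3% and 46.8%.

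With both e3 guides together against the non-targeting guide, CSF1 and IL8 rose and no gene of the set fell. CSF1 was higher by 0.87 ± 0.12 log2 units (SE, limma adjusted p = 0.00843, higher in 4 of 4 e3 libraries) and IL8 by 0.56 ± 0.13 (adjusted p = 0.038, 4 of 4). The call applied to 6.84% of the 13979 genes tested, 3.3% as higher, so 2 of 9 here stands against that background. As lower, 3.54% of all genes were called. An unadjusted p under 0.05 was found for 4 of the 9 and for 21.9% of all genes. The other 7 genes did not pass, with differences of 0.46 for CXCL2 (adjusted p = 0.0953), 0.36 for CXCL1 (0.227), 0.45 for IL1A (0.439), 0.39 for IL6 (0.472), 0.17 for CSF2 (0.593), 0.03 for CXCL3 (0.926) and -0.46 for CCL20 (0.433). All 4 e3 libraries were above both non-targeting libraries for CXCL1, CXCL2, IL8 and CSF1, as for 16% of all genes. The median difference was 0.39 for the 9 genes and 0.00 for all genes tested. The e3 and non-targeting libraries also entered comparisons that were known when the genes were listed, so these p-values are not independent of that choice. Both calls were lost when either non-targeting library was left out (adjusted p of 0.0808 and 0.0868 for CSF1, 0.155 and 0.233 for IL8). That of IL8 was also lost without either e3 guide 2 library (0.0862 and 0.0684), in the model of all 4 groups (0.206), with no filter (0.161) and with the replicate block (0.0666). Without a variance trend the adjusted p was 0.0531 for CSF1 and 0.108 for IL8.

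Each e3 guide was then set against the non-targeting guide in 1 model of all 8 libraries, in which the non-targeting libraries serve both comparisons. Here too the libraries had entered comparisons known when the genes were listed, and the p-values are not independent of that choice. CSF1 rose with either guide, by 0.99 ± 0.14 (adjusted p = 0.00432) with guide 2 and by 0.75 ± 0.14 (adjusted p = 0.0229) with guide 1, in 2 of 2 libraries each. CXCL1 and CXCL2 passed the test with guide 2, at 0.58 ± 0.14 (adjusted p = 0.0414) and 0.57 ± 0.14 (adjusted p = 0.0455), while with guide 1 they were at 0.13 ± 0.14 (0.676) and 0.34 ± 0.14 (0.240). Thus 3 of 9 genes were called with guide 2, where 9.34% of all genes were (4.03% as higher), and 1 of 9 with guide 1, where 4.77% were (2.32% as higher). None of the 9 was called as lower with guide 2 or guide 1, as 5.32% and 2.45% of all genes were. An unadjusted p under 0.05 was found for 4 and 2 of the 9, and for 23.4% and 19.9% of all genes. Both guide 2 libraries were above both non-targeting libraries for 8 of 9 genes, all but CCL20, as for 27.4% of all genes. Both guide 1 libraries were so for 4 of 9, as for 24.4%. IL8, at 0.73 ± 0.28 with guide 2 and 0.39 ± 0.28 with guide 1, did not pass (0.161 and 0.505). CSF2 was at 0.35 ± 0.21 with guide 2 and -0.01 ± 0.21 with guide 1 (0.388 and 0.983). In this model the spread includes the no-guide libraries, of which 1 held 10 reads of IL8 and 2 of CXCL1 and the other 0 of both. With those libraries left out, a choice made after seeing the data, IL8 passed with guide 2 (adjusted p = 0.00376) and with guide 1 (adjusted p = 0.0485). CXCL1 kept its call with guide 2 (0.58 ± 0.08, adjusted p = 0.00713), and CXCL2 no longer passed with guide 2 (adjusted p = 0.0553). In the model of all 8 libraries CXCL1 and CXCL2 were at the edge of the threshold. With a pseudocount of 0.1 RPKM their adjusted p with guide 2 was 0.583 (0.60 ± 0.55) and 0.0547 (0.59 ± 0.15). When 1 library was left out their differences with guide 2 lay between 0.53 and 0.63 and between 0.40 and 0.75. Neither kept its call without any 1 of the e3 or non-targeting libraries. The call of CSF1 with guide 1 was lost without either e3 guide 1 or either non-targeting library, with no filter and without a variance trend (adjusted p over all alternatives between 0.0142 and 0.131).

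**Figure D3:**
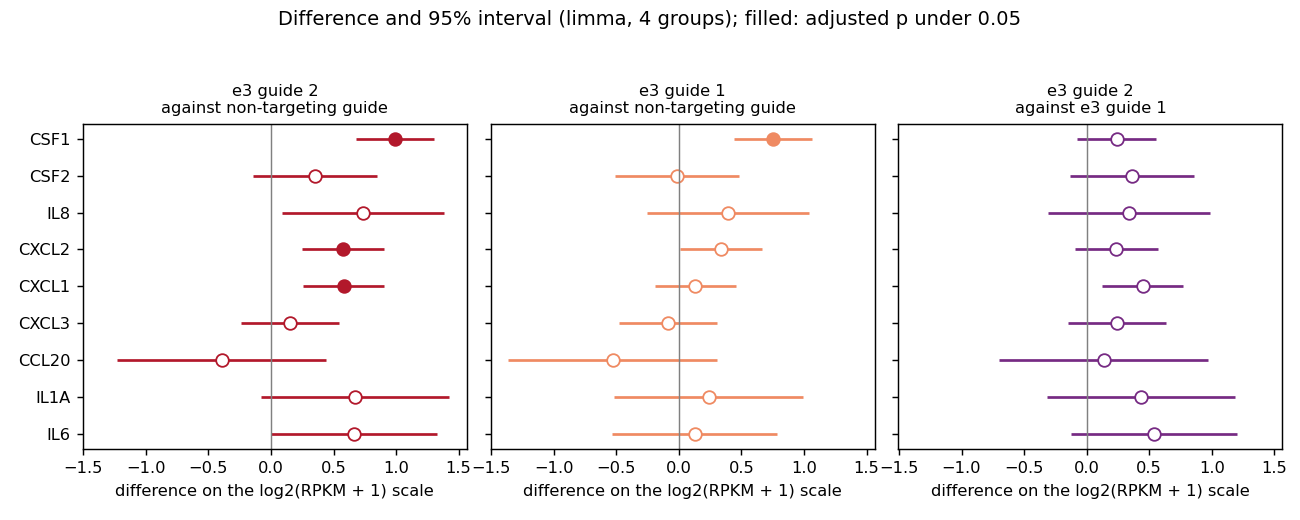
Difference on the log2(RPKM + 1) scale for each of the 9 tested genes in the limma comparisons of the e3 guides, with 95% intervals and filled points for an adjusted p under 0.05. CSF1 lies at 0.99 with guide 2 and 0.75 with guide 1 over the non-targeting guide, and CCL20 lies below 0 in both with intervals that include 0.

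The direct comparison of the guides called none of the 9 genes, with limma at an adjusted p under 0.05; 1 of the 9, CXCL1, had an unadjusted p under 0.05. In all, 0.0286% of genes (4) were called between the guides, 0.0215% as higher with guide 2 and 0.00715% as lower, and 10.4% had an unadjusted p under 0.05. All 9 differences, guide 2 minus guide 1, were above 0, with a median of 0.34 against 0.00 for all genes tested. The difference was 0.45 for CXCL1 (95% interval 0.13 to 0.77, adjusted p = 0.338), 0.53 for IL6 (-0.13 to 1.20, 0.570), 0.36 for CSF2 (-0.13 to 0.86, 0.612), 0.34 for IL8 (-0.31 to 0.99, 0.740) and 0.24 for CSF1 (-0.08 to 0.55, 0.597). Both guide 2 libraries were above both guide 1 libraries for 7 of 9 genes, all but CCL20 and IL1A, as for 20.9% of all genes. The call of CXCL1 and CXCL2 with 1 guide and not the other is therefore not a shown difference between the guides. The difference of MYC, guide 2 minus guide 1, was -0.24 ± 0.05 (adjusted p = 0.193).

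The chromosome 4 cluster was not high as a block in guide-carrying cells. In the order of RefSeq, IL8 is followed by CXCL6, PF4V1, CXCL1, PF4, PPBP, CXCL5, CXCL3 and CXCL2, and then by MTHFD2L and the growth factor genes EPGN, EREG and AREG. CXCL6, another neutrophil chemokine, was at 2.63 and 2.35 RPKM with e3 guide 2 and 3.05 and 3.07 RPKM with e3 guide 1, against 2.16 and 1.54 RPKM with the non-targeting guide and 0 in both no-guide libraries. It lay with its neighbours in the contrast to no guide and was not called in any comparison of the guides. The platelet chemokine genes between them were silent: PF4V1 and PPBP were at 0 in all libraries and PF4 was found in 1 non-targeting library, at 0.709 RPKM. EREG, a ligand of the EGF receptor, ran the other way, at 3.02 and 3.47 RPKM with e3 guide 2 and 5.31 and 5.22 RPKM with e3 guide 1, against 7.08 and 5.60 RPKM with the non-targeting guide and 10.4 and 10.5 RPKM with no guide. EREG fell by 0.79 with guide 2 against the non-targeting guide (limma adjusted p = 0.0141), where 5.32% of all genes were called as lower. It was not called with the e3 guides together (-0.50, adjusted p = 0.229), with guide 1 (-0.22, 0.452) or between the guides (0.243). AREG, a related ligand, averaged 5.87 RPKM with either e3 guide, against 6.83 RPKM with the non-targeting guide and 10.2 RPKM with no guide, and was not called. Outside the cluster, IL3, which lies next to CSF2, was at 0 in all libraries, and IL1B, near IL1A, was between 0.181 and 1.32 RPKM.

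**Figure D4:**
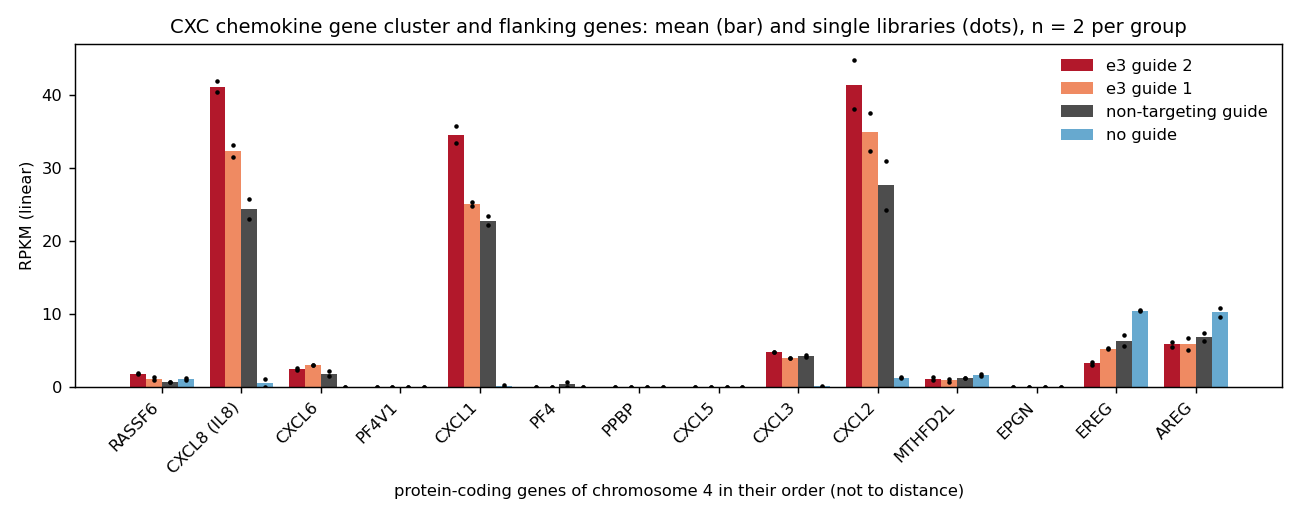
Mean RPKM per group, with 1 point per library, of the genes of the chromosome 4 chemokine cluster and its neighbours in chromosomal order (not to scale). CXCL6 is at 0 with no guide, as IL8 and CXCL1 nearly are, while PPBP and CXCL5 are at 0 in every library and EREG is at 10.4 and 10.5 RPKM with no guide, its highest values.

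Other secreted signals were read from lists that do not overlap the 10 genes. Of 29 other CXC and CC chemokines, 17 were at 0 in all libraries and 3 passed the filter, CXCL6, CXCL16 and CCL28, and none of these was called against the non-targeting guide or between the guides. CXCL10 reached at most 0.398 RPKM and CXCL9 was at 0. Of 20 other cytokines 7 were tested and none was called. LIF, a cytokine of the IL6 family, was at 56.0 and 50.5 RPKM with e3 guide 2 and 47.5 and 49.1 RPKM with e3 guide 1, against 45.3 and 47.0 RPKM with the non-targeting guide and 17.6 and 19.9 RPKM with no guide. IL32 was at 30.6 and 25.2 RPKM with e3 guide 2 and 16.4 and 14.0 RPKM with e3 guide 1, against 24.4 and 24.9 RPKM with the non-targeting guide and 0.870 and 1.45 RPKM with no guide. Both had the no-guide cells lowest, and IL18 had them highest, at 10.3 and 13.0 RPKM against 4.22 to 8.10 RPKM in the guide-carrying libraries.

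Receptors for these signals were mostly not detected. Of 12 receptor genes, 7 were at 0 in all libraries: CXCR1, CXCR2, CCR6, CSF2RA, CSF2RB, IL1R2 and ACKR1 (DARC in the table). The 5 tested, IL1R1, IL1RAP, IL6R, IL6ST and CSF1R, gave no call in any comparison of the guides. CSF1R was at 3.07 and 1.66 RPKM with e3 guide 2 and 2.00 and 2.96 RPKM with e3 guide 1, against 1.43 and 1.74 RPKM with the non-targeting guide and 1.03 and 0.762 RPKM with no guide. IL6R was highest without a guide, at 13.4 and 11.8 RPKM, against 5.12 to 6.34 RPKM in the guide-carrying libraries.

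Most genes of a list of NF-kB subunits and feedback genes, chosen with earlier results known, were also higher in the cells with a guide. Of 14 tested, 13, all but REL, were above both no-guide libraries in all 6 guide-carrying libraries, as were 12.5% of all genes. The difference, non-targeting guide minus no guide, had a median of 1.12 over the 14. It was 0.30 for the subunit NFKB1, 0.27 for RELA and -0.16 for REL. The summed level was 454 to 474 RPKM with e3 guide 2, 432 to 440 with e3 guide 1, 425 to 428 with the non-targeting guide and 186 to 188 with no guide. NFKBIA, the inhibitor that NF-kB itself induces, was at 130 and 121 RPKM with e3 guide 2 and 130 and 126 RPKM with e3 guide 1, against 129 and 127 RPKM with the non-targeting guide and 41.5 and 42.0 RPKM with no guide. Against the non-targeting guide 1 of 14 rose with the e3 guides together, NFKBIZ, a nuclear cofactor for IL6 and other targets, by 0.62 (limma adjusted p = 0.0074). With guide 2 alone 3 rose, NFKBIZ by 0.59, BIRC3 by 0.47 and the feedback inhibitor TNFAIP3 by 0.33 (adjusted p = 0.0191, 0.0271 and 0.0408), with guide 1 NFKBIZ rose, and none fell. These 1, 3 and 1 of 14 stand beside 6.84%, 9.34% and 4.77% of all genes called in the e3 guides together, guide 2 and guide 1 against the non-targeting guide. The median of the 14 was 0.06 for the e3 guides together.

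Among 7 genes for the decay of AU-rich messengers, ZFP36L1, which promotes it, rose by 0.73 with the e3 guides (limma adjusted p = 0.0183) and none fell. In that comparison 6.84% of all genes were called. With guide 2 against the non-targeting guide ZFP36L1 rose and HNRNPD fell, by 0.34 (adjusted p = 0.00394), where 9.34% of all genes were called. With guide 1 only ZFP36L1 was called, where 4.77% were. HNRNPD was not called with the e3 guides together (adjusted p = 0.203) or with guide 1 (0.308). ZC3H12A, an RNase that cuts the IL6 messenger, was at 48.8 and 47.2 RPKM with e3 guide 2 and 44.6 and 46.3 RPKM with e3 guide 1, against 38.9 and 40.4 RPKM with the non-targeting guide and 3.08 and 4.16 RPKM with no guide, and was not called between guides. Of 17 interferon-stimulated genes tested, 14 had both non-targeting libraries above both no-guide libraries, as had 27.2% of all genes, with a median difference of 0.57. In all 6 guide-carrying libraries 6 of the 17 were above both no-guide libraries, as were 12.5% of all genes. Against the non-targeting guide none was called with the e3 guides together, where 6.84% of all genes were. With guide 2, 5 fell (IFIT1, IFIT2, IFIT3, ISG15 and OASL) and none rose. Of all genes, 5.32% were called as lower with guide 2 and 4.03% as higher. With guide 1, 3 rose, among them MX1 and IFI6, and none fell. Of all genes, 2.32% were called as higher with guide 1 and 2.45% as lower. ISG15 fell by 0.49 with guide 2 (limma adjusted p = 0.00331) and MX1 rose by 1.04 with guide 1 (adjusted p = 0.0177). The direct comparison of the guides called none of the 17 (adjusted p = 0.0558 for ISG15 and 0.0976 for MX1). The opposite calls are therefore not a shown difference between the guides.

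The genes whose levels followed those of the set most closely over the 8 libraries, by Pearson's r with the mean standardized profile of the 9 genes, were LCP1 (r = 0.997), GJB2 (0.994), VIM (0.993), MSN (0.992), C15orf48 (0.992), QPCT (0.991), TMEM132A (0.990) and RP11-124N14.3 (0.989), among 947 genes that averaged 5 RPKM or more and had a range of at least 1 log2 unit. These values describe 8 libraries that fall into 2 separate sets, with and without a guide. VIM, an intermediate filament protein, averaged 68.1 RPKM with e3 guide 2 and 51.6 RPKM with e3 guide 1, against 40.2 RPKM with the non-targeting guide and 6.64 RPKM with no guide. C15orf48 averaged 128 RPKM with e3 guide 2 and 107 RPKM with e3 guide 1, against 96.2 RPKM with the non-targeting guide and 5.37 RPKM with no guide. Of the set itself CXCL1 followed the mean profile most closely (r = 0.991) and CCL20 least (0.862), with CSF1 at 0.921. Each of the 9 genes is part of that profile, which raises its r, so these values cannot be set beside those of the other genes.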

How the data were processed

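Poly(A) RNA of 8 NCI-H2009 libraries was sequenced. The authors deposited 1 table of RPKM values for 52576 genes, and the submitters' processing notes name hg19 and Cufflinks without their role or version; strand use and read length are not given in the sources used here. The 10 genes and all gene lists were chosen with earlier results of these data known. Reads per gene were recovered from the steps in the RPKM values (within 0.03 reads of a whole number for 13977 of 13979 genes) and used for depth, ratios and exact intervals, and the floor for a count of 0 was 3 reads over the group. Libraries were compared with limma 3.58.1 in R 4.3.3 on log2(RPKM + 1), which understates the change of low genes, over the 13979 genes whose mean reached 1 RPKM, with a variance trend and Benjamini-Hochberg adjustment over all of them; calls were made below an adjusted p of 0.05. CXCL5 did not pass that filter. The e3 guides together were tested against the non-targeting guide on 6 libraries, and the other comparisons in 1 model of 4 groups. A count test was not run. Libraries of a group differed by more than sampling noise (chi-square per degree of freedom 1.91 to 2.11 over 12206 genes). Replicate numbers did not pair the libraries. The script was tested on simulated data. Genes outside the set were named as the highest of each list, those called, or, for likeness, those with the highest r among the genes compared; CXCL9, CXCL10, IL1B, IL3 and the genes along the cluster were named for their position or family. One gene of the interferon list is not reported here.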

Additional observations from a re-analysis of the deposited data

Results flagged for a closer look

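IL1A in the 4 libraries with an e3 guide was flagged because 1 library stood apart from the other 3. One e3 guide 1 library held 1.40 RPKM (13 reads), against 4.01 RPKM in the other e3 guide 1 library and 3.76 and 3.62 RPKM with e3 guide 2, and the gap to the nearest library made up 0.852 of the whole range. Without that library IL1A was called against the non-targeting guide (log2 difference 0.70, limma adjusted p = 0.0494, against 0.439 with it). The library left out was the lowest of the 4, so the difference had to rise, and the call is not evidence of a change. A flag of this kind arises by chance in about 1 in 20 groups, and the 9 genes with any reads were all screened.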

How the results depend on the processing

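For the e3 guides together against the non-targeting guide (2 of the 9 genes and 956 of all genes called), no filter gave 1 and 379, no variance trend 0 and 31, the replicate block 1 and 597 and the 4-group model 1 of the 9. Leaving out 1 library gave 0 to 3 and 6 to 808, with 6 and 15 genes without the first and the second non-targeting library. Between the guides (0 and 4 called) no filter gave 9 genes, a minimum of 5 RPKM 24, median-ratio scaling 9, quantile normalization 13, no variance trend 0, the replicate block 1, only the 4 libraries compared 1, and leaving out a library 0 to 4. For guide 2 against the non-targeting guide (3 and 1306) a pseudocount of 0.1, no filter and no variance trend each left 1 of the 9 genes, no variance trend 373 genes, and leaving out a library 1 to 3 and 493 to 1193. For guide 1 against the non-targeting guide (1 and 667) no filter gave 0 and 409, no variance trend 0 and 22, only the 4 libraries compared 325, the no-guide libraries left out 2 of the 9, and leaving out a library 0 to 1 and 144 to 606. The replicate numbers do not pair the libraries (correlations of -0.022 to 0.014). With a pseudocount of 0.1 the median difference of the 9 genes was 2.37 for the e3 guides minus both controls (1.32 with 1, and 1.12 to 1.55 when a library was left out) and 4.57 for the non-targeting guide minus no guide (2.27, and 2.14 to 2.39). CSF2 with guide 1 turned to 0.0097 under quantile normalization. Of the values of single genes, 279 kept direction and side of the threshold, 16 lost the call, 3 gained it and 1 turned round; with a library left out the numbers were 230, 24, 3 and 13. Those that turned were uncalled. For the e3 guides together they were CCL20 (-0.9408 to 0.0176), CXCL3 (-0.0079 to 0.0749) and CSF2 (-0.014 to 0.3492). For guide 2 minus guide 1 they were IL1A (-0.0941 to 0.965) and CCL20 (-0.118 to 0.3876), and for guide 2 over the non-targeting guide CCL20 (-0.8733 to 0.085). For guide 1 over the non-targeting guide they were IL1A (-0.2923 to 0.7668), CSF2 (-0.1956 to 0.1676) and IL6 (-0.19 to 0.4408). The cause of these changes was not tested.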
